A study of Mus musculus with 8 samples.

Results

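Gata6, Sox7, Dab2 and Lrp2 were followed in mouse embryonic stem (ES) cells sorted into 4 fractions. Gata6 and Sox7 encode transcription factors of the primitive endoderm (PrEn), and Dab2 and Lrp2 encode proteins of receptor-mediated endocytosis. The members are the 4 genes of this set that the study's own list of probes pairs with a symbol, 1 probe for each, out of 29484 probes tested and 1998 probes that the list names here. That list was drawn up by the study on these same arrays, so the presence of the 4 genes in it is not independent evidence that they differed.

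The cells carried a reporter of Hex (Hhex), a homeobox gene that is transcribed early in endoderm. HV ES cells are 129/Ola cells with a biotin-tagged Hex cDNA, an internal ribosome entry site that amplifies translation and the fluorescent protein Venus placed in the first exon of Hex, in a parental line that expresses the biotin ligase BirA from the R26 locus. The drug selection cassette had been removed. Clones 5.1 and 16.1 of this line were grown with LIF in self-renewing conditions and separated by flow cytometry on Venus (V) and on the cell-surface antigen SSEA-1 (S), which marks undifferentiated ES cells. The fractions V-S+ and V+S+ thus kept SSEA-1, and V-S- with V+S- lacked it, with 1 sample of each clone, so that there were 8 samples and n = 2 in every fraction. All cells, V- fractions included, carried the knock-in and BirA, and no cells without the reporter were compared here. Each sample (Cy3) was hybridised beside a reference made of RNA pooled from mouse cell lines (Cy5), with no dye swap. The log2 ratios below are therefore levels relative to that reference, and levels of different probes cannot be set against each other. Each clone had a slide of its own, so that clone and slide cannot be told apart. Hex has no named probe here, so the sort could not be checked on Hex itself.

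In the blastocyst, the PrEn separates from the epiblast and later gives rise to parietal and visceral endoderm. Gata6, a zinc-finger factor, is needed for PrEn formation, and Sox7, an HMG-box factor of the SoxF group, is expressed in extra-embryonic endoderm. Visceral endoderm takes up material from the maternal side through apical endocytosis. Lrp2 (megalin), a very large member of the LDL receptor family, is one of its cargo receptors, and Dab2 is a clathrin adaptor that binds the cytoplasmic tails of such receptors.

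The probes are 60-base oligonucleotides, and the first 30 bases are shown as they stand in the array files, because each value below is the brightness of 1 such probe.
Sox7 probe: agtcccggatggatattaataatctcgtga
Dab2 probe: tcattttcctgtctaggctaaagctaaact
Lrp2 probe: aaaaagctactggaaatgatgctgctggaa
GC content was 35.0% in the Gata6 probe, 40.0% in the Sox7 probe, 35.0% in the Dab2 probe and 28.3% in the Lrp2 probe, against a median of 43.3% over all probes.

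Since the factors and the endocytic genes are set against each other, the promoters of the endocytic pair were searched for letters that GATA and SOX factors are known to bind. RefSeq windows (GRCm38.p6) were matched for 2 of the 4 genes. They gave 2 annotated starts for Dab2 and 1 for Lrp2, and the 250 bases before each start are printed in the direction of transcription, with a match in capitals.
Dab2, chr15:6299539-6299788, plus strand: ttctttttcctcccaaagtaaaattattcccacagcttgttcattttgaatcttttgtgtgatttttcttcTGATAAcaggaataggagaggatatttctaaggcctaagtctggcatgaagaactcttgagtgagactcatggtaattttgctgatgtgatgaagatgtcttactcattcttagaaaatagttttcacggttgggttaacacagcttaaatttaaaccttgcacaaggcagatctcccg
Dab2, chr15:6386498-6386747, plus strand: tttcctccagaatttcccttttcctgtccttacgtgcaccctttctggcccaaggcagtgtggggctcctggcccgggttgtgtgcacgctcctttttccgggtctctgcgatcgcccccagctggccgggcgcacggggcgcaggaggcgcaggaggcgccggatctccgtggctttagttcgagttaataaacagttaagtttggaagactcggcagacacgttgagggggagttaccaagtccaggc
Lrp2, chr2:69586030-69586279, minus strand: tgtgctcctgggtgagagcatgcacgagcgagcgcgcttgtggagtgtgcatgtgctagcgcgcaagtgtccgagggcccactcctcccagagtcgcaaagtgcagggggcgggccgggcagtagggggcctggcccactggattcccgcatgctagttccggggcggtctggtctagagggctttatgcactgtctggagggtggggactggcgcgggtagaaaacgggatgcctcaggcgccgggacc
The GATA letters searched, on both strands, were AGATAA and its variant with a last G, AGATAG, and the same pair with a first T, which is TGATAA with its own variant TGATAG. The first Dab2 window held 1 match, TGATAA, that began 179 bases before the start. The other Dab2 window and the Lrp2 window held none of these letters. Of 32851 windows of the same length, 26.5% held at least 1 match. The SOX letters AACAAT, searched on both strands, were in none of the 3 windows and in 9.4% of all windows. The 3 windows also differed in base composition, with a GC content from 36.8% in the first Dab2 window to 66.4% in the Lrp2 window.

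All 4 genes were highest, on average, in V+S-, and they differed in where V+S+ stood. For Gata6 and Sox7 the larger part of the difference was between V+S+ and V+S-, although Sox7 of clone 16.1 exceeded its V-S+ level by 0.64 in V+S+, above the 0.50 of Dab2 in that clone. Dab2 lay about midway in V+S+, and Lrp2 stood in V+S+ close to its V+S- level. The formal test of this difference within each gene did not pass after adjustment, as given below.

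For Gata6 the log2 ratios read -2.62 and -2.67 for the V-S+ samples (clones 5.1 and 16.1 in that order, here and below), -2.45 and -2.50 for the V+S+ samples, -2.43 and -2.56 for the V-S- samples, and -1.5045 and -1.98 for the V+S- samples. Both V+S- samples lay above all 6 others, and the clones were furthest apart in V+S-. The means were -2.64 ± 0.03 for V-S+, -2.48 ± 0.04 for V+S+, -2.50 ± 0.09 for V-S- and -1.74 ± 0.33 for V+S- (SD, n = 2). The Gata6 probe was dim, although above background in both channels on every array. Its Cy3 signal was 1.65 to 1.97 times the local background in the 6 samples outside V+S-, and 4.06 and 2.74 times in V+S-.

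Sox7 read -0.32 and -0.20 for the V-S+ samples, -0.17 and 0.44 for the V+S+ samples, -0.31 and -0.20 for the V-S- samples, and 1.23 and 1.78 for the V+S- samples. Both V+S- samples stood apart from the rest, and V+S+ of clone 16.1 was the next highest sample. The means were -0.26 ± 0.08 for V-S+, 0.13 ± 0.43 for V+S+, -0.26 ± 0.08 for V-S- and 1.51 ± 0.38 for V+S- (SD, n = 2). Its Cy3 signal was 2.04 to 3.92 times the background outside V+S- and 7.90 and 10.8 times in V+S-, while its Cy5 signal from the shared reference stayed between 127 and 170 intensity units.

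Dab2 read -2.66 and -2.39 for the V-S+ samples, -2.23 and -1.89 for the V+S+ samples, -2.55 and -2.45 for the V-S- samples, and -1.46 and -1.58 for the V+S- samples. The V- samples, whatever their SSEA-1, the V+S+ samples and the V+S- samples formed 3 levels that did not overlap. How many of all probes showed such an order of fractions was not counted, for Dab2 or for the genes above and below. By pairs, 27.6% of tested probes had V+S+ above V-S+ without overlap, and 21.9% had V+S- above V+S+. The means were -2.53 ± 0.19 for V-S+, -2.06 ± 0.24 for V+S+, -2.50 ± 0.07 for V-S- and -1.52 ± 0.09 for V+S- (SD, n = 2). The Dab2 Cy3 signal was 2.82 to 4.93 times the background outside V+S-, and 7.53 and 7.02 times in V+S-.

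Lrp2 read 1.67 and 1.76 for the V-S+ samples, 2.50 and 3.08 for the V+S+ samples, 1.19 and 1.54 for the V-S- samples, and 2.85 and 3.00 for the V+S- samples. The 4 V+ samples lay above the 4 V- samples, and V+S+ and V+S- overlapped, with the V+S+ sample of clone 16.1 the highest of the 8. The means were 1.71 ± 0.06 for V-S+, 2.79 ± 0.41 for V+S+, 1.36 ± 0.25 for V-S- and 2.93 ± 0.10 for V+S- (SD, n = 2). This probe was bright, at 54.1 to 243 times its Cy3 background.

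**Figure D1:**
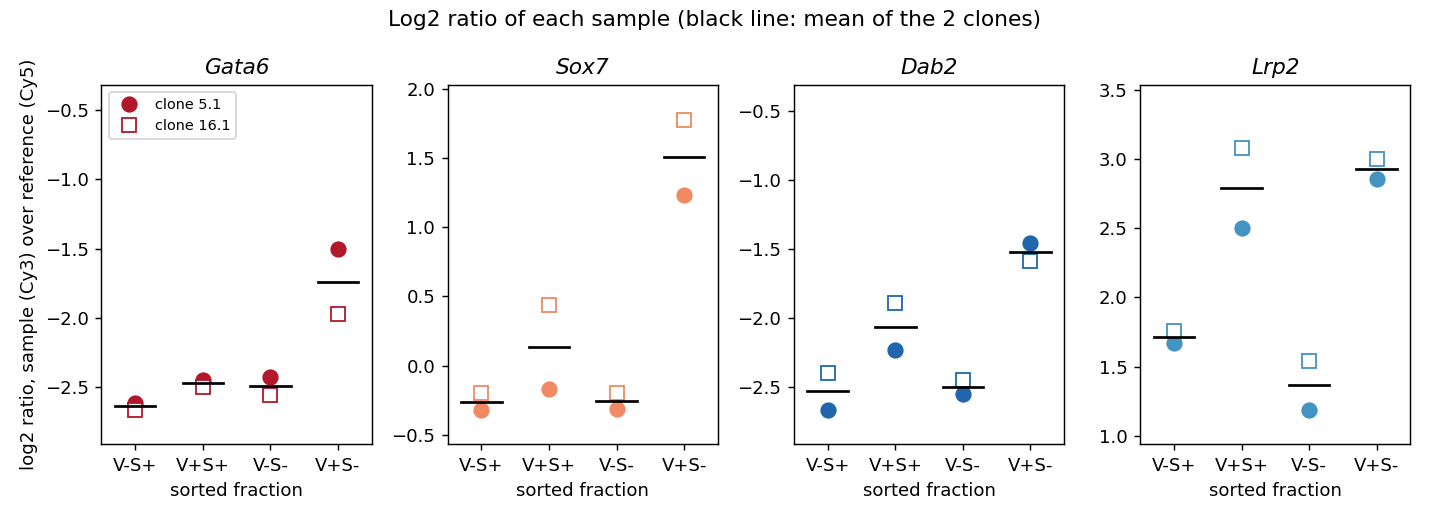
Log2 ratio of sample over reference (y axis) for each gene in the 4 sorted fractions (x axis), with filled circles for clone 5.1, open squares for clone 16.1 and a black line at the mean of the 2. All panels span the same number of log2 units but start at different levels, and only Lrp2 had V+S+ samples overlapping those of V+S-.

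The comparison of V+S- with V-S+ asked how cells with Venus signal and no SSEA-1 differed from those with SSEA-1 and no Venus signal. All 4 genes were higher by more than 1.5-fold at a false discovery rate of 0.05 (limma, Benjamini-Hochberg over all tested probes). With the authors' values Dab2 alone kept its call, and the adjusted p was 0.0581 for Gata6, 0.0513 for Sox7 and 0.0574 for Lrp2 (limma). With those values and clone as a block all 4 were called (adjusted p from 0.0129 to 0.0160, limma). Of the 25164 probes of the authors' table, 306 were called higher without the block and 2404 with it. In the reported fit, 5.73% of all tested probes were called higher in this comparison. Of the 1998 named probes, from which the 4 genes come, 48.1% were. Sox7 was 3.40-fold higher, a log2 difference of 1.77 ± 0.24 (SE) with an adjusted p of 0.0154 (limma), and it ranked 34 from the highest of the tested probes. Lrp2 was 2.32-fold higher (1.21 ± 0.20, adjusted p = 0.0202), Dab2 2.01-fold (1.01 ± 0.14, adjusted p = 0.0157) and Gata6 1.87-fold (0.90 ± 0.15, adjusted p = 0.0196, limma). The difference was positive in both clones for every gene, from 0.69 for Gata6 in clone 16.1 to 1.98 for Sox7 in the same clone. No gene overlapped between these fractions, which was true of 35.6% of all tested probes in the higher direction. The size for Gata6 depended on the processing. With the ratios of the scanner software, which differ in background handling and in normalization, it was 2.04 in place of 0.90, against 2.46 for Sox7, 1.37 for Dab2 and 1.12 for Lrp2. The calls of the 4 genes were lost without either V-S+ sample or without V+S- of clone 16.1. So was the call of every other probe called higher on the array, and this loss was not particular to these genes. The calls of Dab2 and Lrp2 were also lost without V+S- of clone 5.1. The samples are bulk RNA, so a larger share of expressing cells and more RNA per cell cannot be told apart.

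V+S+ against V-S+ asked what accompanied Venus signal while SSEA-1 was kept. Lrp2 was 2.11-fold higher in V+S+, a log2 difference of 1.08 ± 0.20 with an adjusted p of 0.155, and it was positive in both clones (0.83 and 1.33). It ranked 110 from the highest of the tested probes. Dab2 was higher by 0.47 ± 0.14 (adjusted p = 0.201, limma), with 0.43 and 0.50 in the clones. For Sox7 the difference was 0.40 ± 0.24 (adjusted p = 0.399), but 0.15 in clone 5.1 and 0.64 in clone 16.1. Gata6 had the smallest difference of the 4 genes, 0.17 ± 0.15 (adjusted p = 0.559, limma), and 21.9% of probes had a larger one. These sizes depended on the processing. With the scanner-processed ratios Gata6 was at 0.52, Sox7 at 0.77, Dab2 at 0.70 and Lrp2 at 1.03, so that Sox7 stood above Dab2, and none was called. Limma called none of the 4 genes and 0% of all probes here, although 5514 probes had an unadjusted p under 0.05. With clone as a block, 3.87% of all probes and 25.5% of the named probes were called higher. Of the 4 genes Lrp2 was called (adjusted p = 0.00379, limma). Dab2 then passed the false discovery rate (adjusted p = 0.0293) but its 1.38-fold difference was under the 1.5-fold limit. With the authors' values and the block, Lrp2 was not called (1.03, adjusted p = 0.0509, limma). All 4 genes had V+S+ samples above both V-S+ samples, as had 27.6% of all tested probes. With 1 sample left out in turn, the difference ran from 0.30 to 0.64 for Dab2 and from 0.09 to 0.70 for Sox7. It ran from 0.14 to 0.19 for Gata6 and from 0.79 to 1.37 for Lrp2.

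V+S- against V+S+ compared cells without and with SSEA-1 inside the Venus gate, where the level of Venus itself was not held equal. The order of the genes was the reverse for Lrp2. Sox7 was 2.59-fold higher in V+S- (1.37 ± 0.24, adjusted p = 0.118), with 1.40 and 1.34 in the clones, and it ranked 23 from the highest. Gata6 was higher by 0.74 ± 0.15 (adjusted p = 0.132, limma) and Dab2 by 0.54 ± 0.14 (adjusted p = 0.186, limma). Lrp2 differed by 0.14 ± 0.20 (adjusted p = 0.832, limma), with 0.35 in clone 5.1 and -0.08 in clone 16.1. The 95% interval of the Lrp2 difference ran from -0.36 to 0.63, so a difference of up to 1.5-fold in V+S- is inside it. Limma called 0% of probes in this comparison, with 4429 at an unadjusted p under 0.05. With clone as a block 1.75% of all probes and 17% of the named probes were called higher, among them Sox7 (adjusted p = 0.00768) and Gata6 (adjusted p = 0.0141, limma). With the authors' values and the block neither was called (adjusted p = 0.108 and 0.106, limma), nor was any other probe. All genes but Lrp2 (3 of 4) did not overlap between the fractions, against 21.9% of all tested probes.

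**Figure D2:**
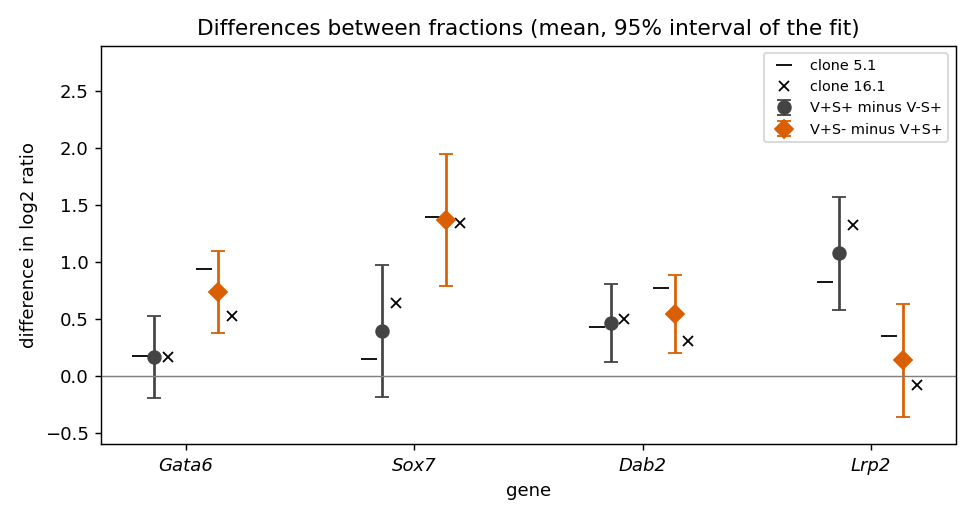
Log2 differences V+S+ minus V-S+ (grey circles) and V+S- minus V+S+ (orange diamonds) for the 4 genes, with 95% intervals of the limma fit and the value of clone 5.1 (dash) and clone 16.1 (cross) beside each mean. For Gata6 and Sox7 the second difference was the larger in both clones, for Lrp2 the first was, and for Dab2 the order turned between the clones.

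Where V+S+ stood on the way from V-S+ to V+S- was expressed as the share of the V+S- minus V-S+ difference, on the log2 scale, that was present in V+S+. This share was 18.5% for Gata6 (15.4% in clone 5.1 and 23.6% in clone 16.1) and 22.4% for Sox7 (9.86% and 32.2%). It was 46.2% for Dab2 (35.6% and 62.1%). It was 88.8% for Lrp2 (70.1% and 107%). In each clone both endocytic genes had a higher share than both factors. On the linear scale of the ratios the shares were 14.1%, 13.1%, 37.7% and 84.2% in the same order. The mean of Dab2 and Lrp2 exceeded the mean of Gata6 and Sox7 in V+S+ against V-S+ by 0.47 log2 units for clone 5.1 and 0.51 for clone 16.1, and was below it in V+S- against V+S+, with -0.61 and -0.82. With the scanner-processed ratios the first gap shrank to 0.37 and 0.08, and the second was -1.16 and -1.30. The size of the gap between the pairs in V+S+ against V-S+ thus depended on the processing, most in clone 16.1. It stayed positive in both clones. Both contrasts use the same V+S+ samples, which enter them with opposite signs.

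Whether the 2 differences were unequal within a gene was tested as V+S- minus V+S+ less V+S+ minus V-S+. It was 0.98 ± 0.42 for Sox7 (unadjusted p = 0.0550), 0.57 ± 0.26 for Gata6 (unadjusted p = 0.0686), 0.08 ± 0.25 for Dab2 (unadjusted p = 0.767) and -0.94 ± 0.35 for Lrp2 (unadjusted p = 0.0361, limma). None passed over all tested probes (adjusted p from 0.716 to 0.956, limma), and the call rate was 0% with 2025 probes at an unadjusted p under 0.05. With clone as a block the lowest adjusted p among the 4 was 0.0806, for Lrp2, while 0.376% of tested probes passed with a positive value and 1.1% with a negative one. The contrast between the factors and Lrp2 is thus a description of these 8 samples.

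The V- fractions were compared with each other too. V-S- minus V-S+ was 0.15 ± 0.15 for Gata6, 0.00 ± 0.24 for Sox7, 0.03 ± 0.14 for Dab2 and -0.35 ± 0.20 for Lrp2. None was called, with adjusted p-values of 1 (limma), the call rate over all probes was 0% in both directions and 834 probes had an unadjusted p under 0.05. Lrp2 was lower in V-S- in both clones (-0.49 and -0.21), and 99.5% of probes had a higher difference. Gata6 was the only one of the 4 whose V-S- samples both lay above both V-S+ samples, as did 17.8% of tested probes. With the scanner-processed ratios and the authors' values the Gata6 difference was 0.40 and not called. The signs for Sox7 and Dab2 turned when ratios were centred on the median in place of loess.

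Against V-S-, V+S- was higher for all 4 genes. Of all tested probes 6.3% were called higher, and of the 1998 named probes, from which the 4 genes come, 53.1% were. The log2 differences were 1.76 ± 0.24 for Sox7 (adjusted p = 0.0137), 1.56 ± 0.20 for Lrp2 (adjusted p = 0.0131), 0.98 ± 0.14 for Dab2 (adjusted p = 0.0151) and 0.76 ± 0.15 for Gata6 (adjusted p = 0.0253, limma). This comparison shares the V+S- samples with that against V-S+. For Gata6 it was 1.63 with the authors' values and no longer called (adjusted p = 0.0718, limma). The 4 genes did not overlap between these fractions, as 35% of tested probes did not in this direction. Each call was lost without either V-S- sample or without V+S- of clone 16.1. So was the call of every other probe called higher in this comparison, and this loss was not particular to these genes. The Gata6 call was also lost without V+S- of the other clone, without either V-S+ sample and with only the fractions compared.

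V+S+ against V-S- gave 1.43 ± 0.20 for Lrp2 (adjusted p = 0.0635), 0.44 ± 0.14 for Dab2 (adjusted p = 0.159), 0.39 ± 0.24 for Sox7 (adjusted p = 0.374) and 0.02 ± 0.15 for Gata6 (adjusted p = 0.944, limma). No probe was called (0%), with 6605 at an unadjusted p under 0.05. With clone as a block 4.76% of probes were called higher, Lrp2 among them (adjusted p = 0.00137, limma). In this comparison Lrp2 ranked 34 from the highest. No overlap with V-S- was found for Lrp2, Dab2 and Sox7 (3 of 4, against 28.8% of tested probes), and Gata6 overlapped.

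Whether the difference between S- and S+ cells depended on Venus was measured as V+S- minus V+S+ less V-S- minus V-S+. It was 1.37 ± 0.34 for Sox7, with 1.40 in clone 5.1 and 1.34 in clone 16.1. The values for Gata6, Dab2 and Lrp2 were 0.59 ± 0.21, 0.51 ± 0.20 and 0.49 ± 0.29. For Lrp2 the clones were apart, with 0.84 in clone 5.1 and 0.13 in clone 16.1. With 1 sample left out in turn, its value ran from 0.20 to 0.78. None of the 4 passed (adjusted p from 0.571 to 0.737, limma), 0% of probes were called and 2340 had an unadjusted p under 0.05. With clone as a block 0.899% of probes were called higher, and of the 4 genes Sox7 passed (adjusted p = 0.0420), which it did not with the authors' values and the block (adjusted p = 0.291, limma).

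**Figure D3:**
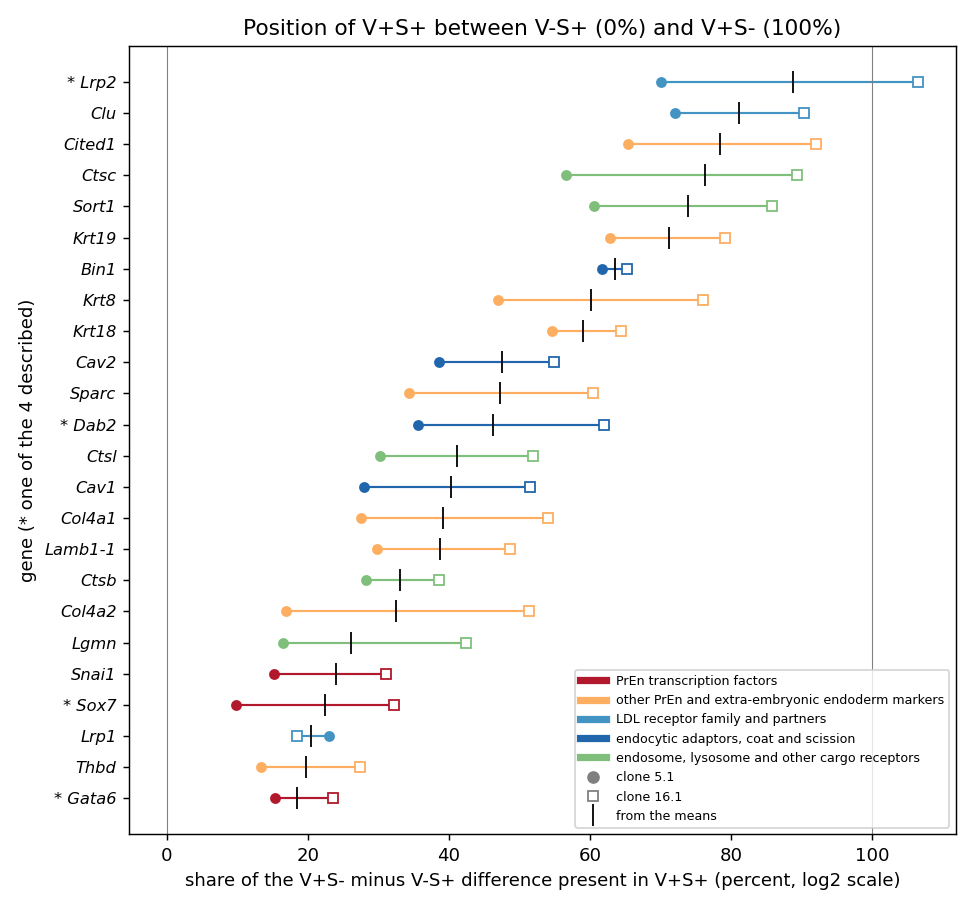
Share of the V+S- minus V-S+ log2 difference that was present in V+S+ (x axis, percent) for the 24 genes of the PrEn and endocytic lists called higher in V+S- against V-S+, coloured by list, with a filled circle for clone 5.1, an open square for clone 16.1 and a black tick from the means. From the means, Gata6 has the lowest share and Lrp2 the highest, while both kinds of gene spread over most of the range between them. In clone 5.1 Sox7, Thbd and Snai1 lie below Gata6, and Clu lies above Lrp2. In clone 16.1 Lrp1 lies below Gata6.

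The other genes of these pathways were taken from lists of PrEn genes and of endocytic genes. Since names come from the study's list of probes that it selected on these arrays, their counts are not independent evidence, and list genes with no named probe were not analysed here. Of 36 PrEn genes listed, 14 had a named probe, Gata6 and Sox7 included. In V+S- against V-S+, 12 of the 14 were called higher and none lower, with a median log2 difference of 1.12. Over all tested probes 5.73% were called higher and the median was 0.01. Over the 1998 named probes, from which these genes come, 48.1% were called higher (962 probes) and the median was 0.67. The count was 4 with the authors' values and 14 with these and the block, where 306 and 2404 of 25164 probes were called higher. It fell without V+S- of clone 5.1. Without either V-S+ sample or without V+S- of clone 16.1, calls of higher probes were lost over the whole array, and so in this list. Afp and Amot, at 0.58 and 0.93, were not called. Of 70 endocytic genes listed, 16 had a named probe, and 12 were called higher and none lower, with a median difference of 0.98, to be read against the same shares and medians. This count was 2 with the authors' values and 11 with these and the block. It fell without V+S- of clone 5.1 and without either V-S- sample. Calls were again lost, over the whole array, without either V-S+ sample or without V+S- of clone 16.1. Comparing V+S+ with V-S+, none of either list was called, and with clone as a block 5 of the 14 PrEn genes and 6 of the 16 endocytic genes were called higher, against 3.87% of all tested probes and 25.5% of the named probes. The block also called 1 endocytic gene lower, Itsn1 at -0.88, as it did 8.76% of the named probes. With the authors' values and the block, 4 PrEn and 2 endocytic genes were called higher here, where 480 of 25164 probes were.

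Snai1, a zinc-finger repressor of the epithelial state, was the third PrEn transcription factor with a named probe. It was higher in V+S- than V-S+ by 1.01 (adjusted p = 0.0130, limma), with a share of 23.9% present in V+S+, near the shares of Gata6 and Sox7. The other PrEn genes did not all stand with these factors. Thbd, the thrombomodulin gene of parietal endoderm, had a share of 19.8%, and the basement-membrane collagen genes Col4a2 and Col4a1 had 32.6% and 39.2%. Krt19, a keratin gene, and Cited1, a transcriptional co-regulator, had 71.3% and 78.4%.

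The endocytic genes were as widely spread. Among relatives of Lrp2 in the LDL receptor family, Lrp1, which encodes another large cargo receptor, had a share of 20.4% with a V+S- minus V-S+ difference of 0.99 (adjusted p = 0.0122, limma). Clu, whose product clusterin is a ligand of Lrp2, had 81.2% with a difference of 1.24 (adjusted p = 0.0296, limma). Vldlr, at 0.58, did not reach the 1.5-fold limit. Beside Dab2, the caveolin genes Cav1 and Cav2 were higher by 2.07 and 1.31 (adjusted p = 0.0257 and 0.0177, limma), with shares of 40.3% and 47.5%. Among lysosomal proteases, Lgmn and Ctsb had shares of 26.2% and 33.0%, and Ctsc had 76.3%. Over the genes called higher, the median share was 39.0% for 12 PrEn genes (18.5% to 78.4%) and 46.8% for 12 endocytic genes (20.4% to 88.8%), so that the wide gap between the factor pair and Lrp2 was not a gap between the 2 lists.

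For each member, the 3 named probes whose log2 ratios over the 8 samples correlated best with it were taken as a description. The points share clones, slides and the same reference, and 4 of them are V+ samples. The nearest to Sox7 were Snai1 (Pearson r = 0.9986), Tnrc18 (r = 0.9975) and Col1a2 (r = 0.9970), the last a fibrillar collagen gene. The nearest to Gata6 were Rin3 (r = 0.9892), whose product acts on Rab5, Bace2 (r = 0.9806), an aspartyl protease gene, and Fer1l3 (r = 0.9706), the myoferlin gene. Dab2 was followed most closely by Itgb4 (r = 0.9924), which encodes an integrin subunit, 4932442K08Rik (r = 0.9904) and P2rx4 (r = 0.9883), an ATP-gated channel gene. Lrp2 was followed by Cldn6 (r = 0.9985), the gene of a tight-junction claudin, Fmn1 (r = 0.9974), a formin gene, and Ankrd1 (r = 0.9973). Since these genes were picked for their correlation with a member, their patterns differ as those of the members do by the choice itself. Rin3 was higher by 0.24 in V+S+ against V-S+ and by 0.78 in V+S- against V+S+, whereas Cldn6 read 0.89 and 0.93 for V-S+, 1.30 and 1.56 for V+S+ and 1.43 and 1.48 for V+S-.

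Markers of undifferentiated ES cells differed in the opposite direction to the members. Of 8 listed, 3 had a named probe, and in V+S- against V-S+ all 3 were called lower, where 1.28% of all probes and 11.6% of the named probes were. Dppa3 (Stella) differed by -1.75 (adjusted p = 0.0153), Pou5f1, the Oct4 gene, by -1.01 (adjusted p = 0.0413) and Nanog by -0.96 (adjusted p = 0.0298, limma). They fell into different patterns across V+S+. In V+S+ against V-S+, Nanog and Dppa3 were at -0.72 and -1.37, and both were called lower with clone as a block (1.75% of all probes and 8.76% of the named probes were), whereas Pou5f1 was at 0.22 and was not. Pou5f1 itself read 1.99 and 1.54 for V-S+, 2.25 and 1.71 for V+S+, 1.40 and 1.59 for V-S-, and 0.97 and 0.54 for V+S-. Its 2 V+S- samples were the lowest of the 8, as those of Gata6, Sox7 and Dab2 were the highest.

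Markers of other cell types could be followed only in part. None of 5 neuroectoderm markers had a named probe. Of 6 fibroblast markers, Col1a2 alone had one, reading -5.38 and -5.12 for V-S+, -5.08 and -4.45 for V+S+, -5.35 and -5.18 for V-S-, and -3.69 and -2.90 for V+S-. It was thus far below the reference in every sample and followed the pattern of Sox7, and it was called higher in V+S- against V-S+ (1.95, adjusted p = 0.0177, limma). Of 5 mesoderm and epiblast markers, Fgf5 alone was named, reading -0.69 and -0.34 for V-S+, 0.42 and 1.36 for V+S+, -0.44 and 0.18 for V-S-, and 0.61 and 1.27 for V+S-. As with Lrp2, its V+ samples lay above its V- samples and V+S+ overlapped V+S-. It was called higher in V+S- against V-S+ (1.46, adjusted p = 0.0497, limma). In V+S+ against V-S+ it differed by 1.41 (adjusted p = 0.185, limma), with 1.11 and 1.70 in the clones. It was called there with clone as a block and had a share of 96.6%, so that the probe of this 1 epiblast marker moved with Lrp2. In V+S- against V-S- it differed by 1.08 and was not called (adjusted p = 0.0972, limma). By quantitative PCR, with Fgf5 in the panel, the paper found epiblast markers not enriched in V+S+. Of 5 trophectoderm markers, Krt7 was called higher in V+S- against V-S+ by 0.73 (adjusted p = 0.0298, limma), and Tfap2c was at -0.88 (adjusted p = 0.0747, limma). The part of such cells in the differences of the 4 genes was not tested.

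How the signals were processed changed sizes more than directions in V+S- against V-S+. Across 13 alternatives that kept all samples of the fractions compared, Lrp2 ranged from 1.12 to 1.28 log2 units and Dab2 from 0.96 to 1.37, while Sox7 ranged from 1.68 to 2.46 and Gata6 from 0.85 to 2.04. The largest values of Gata6, Sox7 and Dab2 came from the scanner-processed ratios and from the authors' table, whose differences were the same. Leaving out background correction alone gave 0.98 for Gata6. The order of the shares in V+S+, with Gata6 and Sox7 lowest, Dab2 next and Lrp2 highest, held under the alternatives that kept all 8 samples. There Gata6 had 13.4% to 25.5%, Sox7 20.0% to 31.1%, Dab2 40.7% to 51.4% and Lrp2 81.7% to 92.2%. Probe brightness had the same order, with Gata6 dimmest in V-S+, then Sox7, Dab2 and Lrp2. Whether dim signal lowered a share was not tested.

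**Figure D4:**
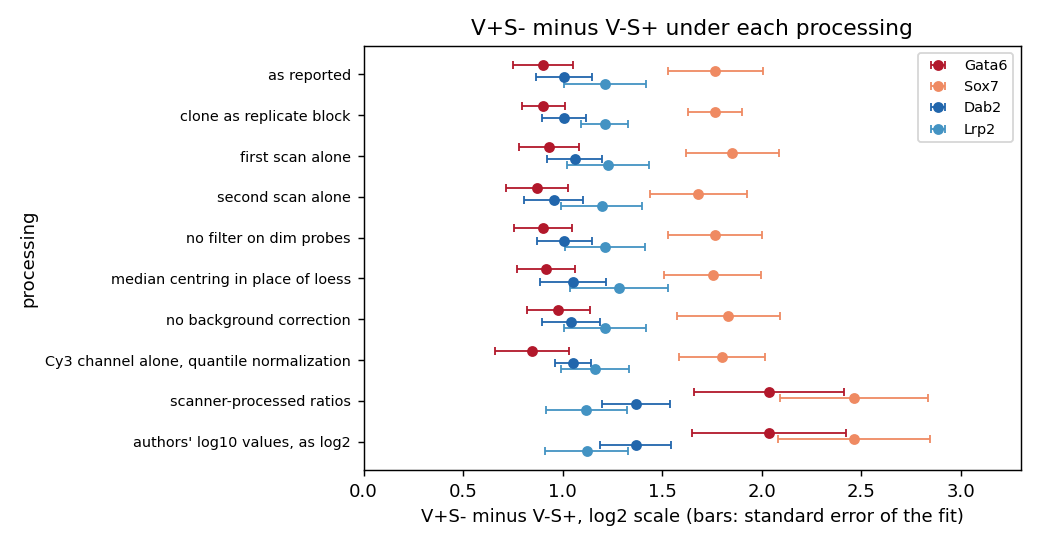
V+S- minus V-S+ difference of the 4 genes (x axis, log2 units, bars for the standard error of the fit) under 10 ways of processing the same 8 samples (y axis). Gata6 and Sox7 shift to 2.04 and 2.46 with the scanner-processed ratios and the authors' values, and Lrp2 stays near 1.12 to 1.21 there and in the reported fit.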

How the data were processed

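RNA of 8 sorted samples was measured on Agilent 2-colour arrays of 60-base probes. The authors deposited 16 scanner files (2 scans per array, Agilent Feature Extraction, linear intensity of Cy3 and Cy5 and local background, 43451 spots each, 0 saturated) and a table of log10 ratios of 25164 probes. Its per-probe centred values correlated at 1 with the scanner-processed ratios, so centring and base level of that table stay unstated. Here, mean intensities were background-corrected (normexp, offset 50) and loess-normalized within arrays (limma 3.58.1, R 4.3.3), scans were averaged, and of 42006 probes the 29484 that were well above background in Cy3 in a whole fraction and had values in all samples were fitted on the log2 scale, with fraction as the term and all 8 samples. Calls needed a Benjamini-Hochberg adjusted p under 0.05 and over 1.5-fold, as in the study's methods; interaction terms needed only the former. Per sample, 28316 to 29671 probes were above background, and the number of arrays limits the precision. The standard deviation between scans was 0.0563 to 0.0779 log2 units. The 2 samples of a fraction are separate clones of 1 targeted line. Samples of the same clone come from the same cell line and deviated together (r = 0.588 to 0.811 over 6 pairs of fractions), so the fit with clone as a block was run too.

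Probe names came from the first 1998 rows of a list that the study selected on these arrays, and its later rows were not available here. The named set is thus an incomplete part of that list and not a random one. A gene with no named probe may still have a probe on the array. Fractions came from sample titles, since 1 other label repeats a fraction. Named were the 4 genes, list genes with a probe of 1 symbol, and the 3 named probes most correlated with each gene. The genes and lists were chosen with earlier results of these data known. The fits were tested on simulated data. Motifs were searched with Python 3.11.15.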

Additional observations from a re-analysis of the deposited data

Results flagged for a closer look

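The Sox7 difference between S- and S+ cells was larger among V+ than among V- fractions in the fit that had clone as a block, where the interaction of 1.37 log2 units, positive in both clones, had an adjusted p of 0.0420 (limma). It did not pass without the block (adjusted p = 0.571, limma), nor with the block on the authors' values (adjusted p = 0.291, limma).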

How the results depend on the processing

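Of 664 values of the 4 genes under alternatives, 608 kept their direction and their side of the threshold, 7 came to pass it, 34 no longer passed and 15 changed sign. With clone as a replicate block, Lrp2 passed in V+S+ against V-S+ (1.08) and against V-S- (1.43), Gata6 (0.74) and Sox7 (1.37) passed in V+S- against V+S+, and the Sox7 interaction passed (1.37). The PrEn and endocytic genes called higher then numbered 5 and 6 in V+S+ against V-S+ and 6 and 4 in V+S- against V+S+, all from 0, where it called 25.5% and 17% of the named probes higher. The block changed no other call of the 4 genes. The authors' log10 values (25164 probes, of which 306 were called higher and 89 lower in V+S- against V-S+, where 1688 and 377 were as reported) no longer called Gata6 (2.04), Sox7 (2.46) and Lrp2 (1.12) in V+S- against V-S+ (adjusted p from 0.0513 to 0.0581, limma) nor Gata6 in V+S- against V-S- (1.63). There 4 PrEn and 2 endocytic genes were called in V+S- against V-S+, and 4 endocytic genes in V+S- against V-S-. With the block added, an alternative chosen after seeing the data, those values called all 4 genes in V+S- against V-S+ and against V-S-, with 14 PrEn and 11 endocytic genes in the former, and 4 and 2 genes in V+S+ against V-S+ and Lrp2 in V+S+ against V-S- (1.38), but not Lrp2 in V+S+ against V-S+ (1.03), Gata6 (1.52) and Sox7 (1.70) in V+S- against V+S+ or the Sox7 interaction (1.66), which the block had called. Of 25164 probes, the authors' values with the block called 2404 higher in V+S- against V-S+ and 2437 in V+S- against V-S-. In V+S+ they called 480 higher against V-S+ and 1100 higher against V-S-. With only the fractions compared, Gata6 in V+S- against V-S- was lost (0.76). The cause was not tested.

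Signs turned for 5 results, none over 0.14 in size as reported. In V-S- against V-S+, median centring gave -0.0601 for Sox7 and -0.105 for Dab2, and the second scan alone -0.0571 for Sox7. The Dab2 difference of steps, 0.08 as reported, was -0.0369 with scanner-processed signals and -0.0370 with the authors' values, block or not. The Gata6 share was 25.5% with both of the latter. Median centring moved the median of all probes to -0.125 in V-S- against V-S+, 0.132 in V+S- against V-S- and 0.196 in the interaction, and turned 1858 higher and 440 lower probes in V+S- against V-S- into 3744 and 139.

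Leaving out 1 sample in turn, V+S- against V-S+ ranged from 0.67 to 1.14 for Gata6, 1.49 to 2.04 for Sox7, 0.87 to 1.14 for Dab2 and 1.14 to 1.29 for Lrp2. Every one of the 4 calls was lost without either V-S+ sample or without V+S- of clone 16.1. So were the calls of all other probes called higher. Those of Dab2 and Lrp2 were also lost without V+S- of clone 5.1. Against V-S- the ranges were 0.52 to 0.99, 1.49 to 2.03, 0.91 to 1.04 and 1.38 to 1.74. There every call was lost without either V-S- sample or V+S- of clone 16.1, again with those of all other probes called higher. Gata6 was also lost without V+S- of clone 5.1 or either V-S+ sample. List counts ran from 0 to 13 (PrEn) and from 0 to 12 (endocytic) in both comparisons. A fraction left with 1 sample is assumed to vary like the others. The remaining ranges that crossed 0 were -0.15 to 0.43 for Lrp2 in V+S- against V+S+ (lowest without V+S+ of clone 5.1), -0.0539 to 0.0634 for Sox7 and -0.10 to 0.17 for Dab2 in V-S- against V-S+, -0.0423 to 0.0858 for Gata6 in V+S+ against V-S-, and -0.27 to 0.42 for the Dab2 difference of steps. Lrp2 in V+S+ against V-S- ranged from 1.14 to 1.72 and was called without V+S+ of clone 5.1. The share present in V+S+ ranged from 14.7% to 25.1% for Gata6, from 5.35% to 39.5% for Sox7, from 29.3% to 63.2% for Dab2 and from 64.9% to 113% for Lrp2, with both Sox7 ends set by which V+S+ sample was left out.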

Other observations

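Among the endocytic genes with a named probe, 3 had a V+S- mean below that of V-S+, opposite to Dab2 and Lrp2. Itsn1, which encodes the clathrin-coat scaffold intersectin, was at 0.83 and 0.91 in V-S+ (clones 5.1 and 16.1), 0.23 and -0.26 in V+S+, 0.89 and 0.90 in V-S- and 0.48 and 0.08 in V+S-. All 4 V+ samples were thus below all 4 V- samples, an order whose share over all probes was not counted. The differences were -0.88 in V+S+ and -0.58 in V+S- against V-S+ (adjusted p = 0.164 and 0.0782, limma). Tfrc, the transferrin receptor gene, differed by -0.50 and -0.63 in the same comparisons (adjusted p = 0.220 and 0.0523, limma). Rab5c, the gene of an early-endosome GTPase, was at 0.10 and 0.22 in V+S+ and between -0.26 and -0.76 in the other 6 samples, so that V+S+ alone lay above the reference. None of the 3 genes was called without the block. In the fit with clone as a block, Itsn1 was called lower in V+S+ against V-S+, Tfrc in V+S- against V-S+ and Rab5c in V+S- against V+S+. In the same order, that fit called 515, 891 and 104 of the 29484 tested probes lower. Among the named probes it called 8.76%, 15.9% and 2.3% lower.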
